A study of Cricetulus griseus with 4 samples.

Results

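HSP90AA1, DNAJB1 and HSPA9 are the heat shock chaperone genes that could be named on a two-channel array comparing chromosomally stable and unstable clones of Chinese hamster cells. A gene was taken when its symbol stood alone on a probe in the array's annotation, and each of these 3 genes, out of 347 genes named in this way, was on 1 probe spotted 2 times. RNA of the stable clone RT210B was in channel 1 of all 4 arrays. Channel 2 held RNA of 2 unstable clones in equal parts: LS12 and 10-107-9 in mixture 1, and Fe10-3 and 10-56-11 in mixture 2. Each mixture was measured on 2 arrays, called replicates 1 and 2 in the titles. The labels give no treatment, growth condition or tissue, and the replicates are not said to be separate cultures. The p-values thus cover the spread between arrays alone, and that spread may be purely technical. RT210B was the one control on every array, so the spread of the stable clone is in no test. Because clones were pooled, no value belongs to a single unstable clone, and a moderate difference in both clones of a pool cannot be told apart from a large one in 1 of them. Likewise, different numbers of cells of a kind and different RNA levels per cell cannot be told apart in RNA of whole cultures.

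Heat shock proteins bind unfolded or partly folded proteins and help them to reach, or keep, a working shape. HSP90AA1 encodes the stress-inducible form of cytosolic HSP90, an ATP-driven dimer that holds kinases, steroid receptors and other client proteins in an activatable state. DNAJB1 encodes the cytosolic J-domain protein HSP40, which brings substrates to HSP70 and stimulates its ATPase. HSPA9 encodes mortalin, the HSP70 of the mitochondrial matrix, which pulls imported proteins through the inner membrane and helps to fold them. HSP90AA1 and DNAJB1 are well-known targets of the heat shock factor HSF1 in the nucleus, while mortalin belongs to the machinery of mitochondrial protein import.

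Each value is the log2 of the ratio of the 2 channels. The spots of a probe were averaged and the median of all 1152 probes was subtracted from each array, so 0 is the array's middle probe. No source used here gives the dyes or the numerator, and so the sign of a value does not tell which pool had more of the transcript. The arrays differed in width: over probes the SD was 1.14 and 1.05 with mixture 1, but 0.80 and 0.47 with mixture 2. The labels mention a normalization factor for 1 array of each mixture. Probes were annotated with human genes while the RNA was hamster. The hamster RefSeq gene table (assembly CriGri-PICRH-1.0) lists 1 gene of the same symbol for each of the 3 genes. Cross-hybridisation, for example between HSP90AA1 and its close relative HSP90AB1, was not tested. Of 24 marker genes of blood, epithelial, mesenchymal, endothelial and neural cells, 2 could be named on the array: CDH5 of endothelial cells, with mean log2 ratios of 0.24 in mixture 1 and -1.55 in mixture 2, and S100B of neural cells, at 0.22 and 0.42. Their part in the results on chaperones was not tested.

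In mixture 1, all 3 chaperone genes lay well to the positive side of the middle probe, while in mixture 2 they parted. HSP90AA1 had the largest ratio in mixture 1 and none clear of 0 in mixture 2. DNAJB1 was positive on every array, and smaller in mixture 2. HSPA9 was positive in mixture 1 and negative in mixture 2, but in mixture 1 its arrays, and even its spots on 1 array, disagreed widely.

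**Figure D1:**
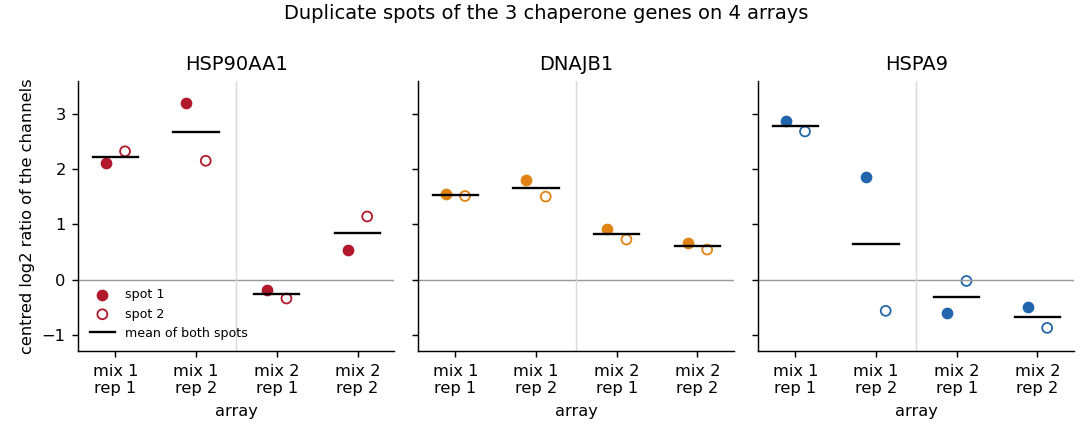
Centred log2 ratio (vertical axis) of each duplicate spot of HSP90AA1, DNAJB1 and HSPA9 on the 4 arrays (horizontal axis). Filled and open circles are the spots of a probe and the black line is their mean. All 8 spots of DNAJB1 are positive, whereas the spots of HSPA9 on replicate 2 of mixture 1 lie at 1.87 and -0.57.

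HSP90AA1 had log2 ratios of 2.22 and 2.68 in mixture 1. In mixture 2 it lay at -0.27 and 0.84. Both arrays of mixture 1 were thus above both of mixture 2, by at least 1.38, an order found for 36.2% of all probes. The arrays of mixture 2 fell on opposite sides of 0. The individual spots gave the same picture: 4 of 4 spots were positive in mixture 1, from 2.12 to 3.20, and 2 of 4 in mixture 2, from -0.34 to 1.14. On replicate 2 of mixture 1 its spots were 1.04 apart, more than for 84.9% of all probes on that array.

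Ranks among the 1152 probes do not depend on the width of an array. HSP90AA1 ranked 9th and 3rd from the highest in mixture 1. On replicate 2 of mixture 2, the array with the narrowest ratios, it ranked 4th with a log2 of 0.84, or 1.80-fold. On replicate 1 of mixture 2 it ranked 722nd, in the lower part of the array. The gap of 1.11 between the arrays of mixture 2 was wider than that of 92.0% of probes, so the replicates of mixture 2 disagree on HSP90AA1 itself. On replicate 1 of mixture 2, the 40 probes nearest to HSP90AA1 in identifier order had a median of 0.54, against -0.08 on replicate 2. No source used here says whether identifier order follows position on the slide, and the part of the neighbouring probes in this value was not tested.

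DNAJB1 had log2 ratios of 1.53 and 1.65 in mixture 1 and of 0.82 and 0.61 in mixture 2. Its groups did not overlap, and the lowest array of mixture 1 was 0.71 above the highest of mixture 2. Of all probes, 36.2% had both arrays of mixture 1 above both of mixture 2. The 8 spots were all positive, from 1.50 to 1.80 in mixture 1 and from 0.54 to 0.91 in mixture 2. DNAJB1 had the closest spots of the 3 genes, 0.16 apart in the mean over the 4 arrays, less than for most probes (19.1% had a smaller difference). Close spots do not show that a ratio is accurate. With the trend of the ratio on spot agreement removed, DNAJB1 had a mean of 1.00 in mixture 1, against 1.59 before. As a fold from the middle probe its values were 2.90 and 3.14 in mixture 1 and 1.77 and 1.52 in mixture 2.

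In rank, DNAJB1 was less extreme than HSP90AA1 on every array but replicate 1 of mixture 2. It stood above 96.9% and 94.3% of probes in mixture 1 and above 87.5% and 95.8% in mixture 2. By rank the mixtures thus overlapped, although by log2 ratio they did not.

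HSPA9 had log2 ratios of 2.78 and 0.65 in mixture 1 and of -0.31 and -0.68 in mixture 2. It was positive on both arrays of the one and negative on both arrays of the other, as were 6.60% of all probes. The distance between the nearest arrays was 0.96. On replicate 1 of mixture 1 the spots agreed, at 2.88 and 2.69, and the gene ranked 3rd of all probes. On replicate 2 of mixture 1 they lay at 1.87 and -0.57, a 5.40-fold disagreement within the array.

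The difference between those spots was exceeded by 20 of 1152 probes on that array. The second of them lay inside the range of the 4 spots of mixture 2, which ran from -0.88 to -0.03, so the spots of the mixtures overlapped for HSPA9 and not for HSP90AA1 or DNAJB1. In the mean over the 4 arrays the spots of HSPA9 were 0.90 apart, more than for 89.6% of probes, against 0.50 for HSP90AA1. The gap of 2.13 between the arrays of mixture 1 was wider than that of 97.0% of probes.

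**Figure D2:**
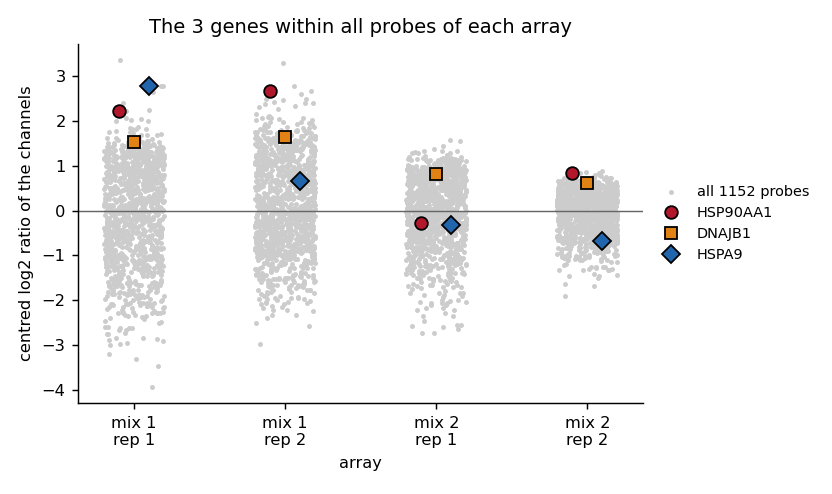
Centred log2 ratio (vertical axis) of all 1152 probes on each array (grey points, spread sideways at random) with HSP90AA1, DNAJB1 and HSPA9 marked. HSP90AA1 ranks 9th, 3rd, 722nd and 4th from the top across the arrays from left to right, and HSPA9 moves from 3rd place on the first array to 1028th on the last.

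Tested with limma over all 1152 probes (Benjamini-Hochberg adjustment, threshold 0.05), all 3 genes passed on the positive side in mixture 1. HSP90AA1 had a mean log2 of 2.45 ± 0.32 (SD, n = 2), 5.46-fold from the middle probe, with a limma adjusted p of 0.00610. DNAJB1 had 1.59 ± 0.08 (SD, n = 2), or 3.02-fold, with a limma adjusted p of 0.00821. HSPA9 had 1.72 ± 1.51 (SD, n = 2), or 3.28-fold, with a limma adjusted p of 0.0193. Its test used an SE of 0.463, taken over both mixtures and drawn towards the spread of all probes. The interval, 0.66 to 2.77, leaves out its own value on replicate 2 (0.65).

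Passing was common in mixture 1. Of all probes 43.1% passed, 24.4% with positive values and 18.8% with negative ones, so the count of 3 of 3 is read against nearly 1 probe in 4. By size, HSP90AA1 and DNAJB1 were at least 2-fold positive on both arrays of mixture 1, as were 14.1% of all probes, and HSPA9 was not, because of replicate 2. Their order in mixture 1 was HSP90AA1, HSPA9, DNAJB1. HSPA9 could not be ordered against the others beyond the spread of its arrays, while the values of HSP90AA1 and DNAJB1 did not overlap.

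The result for HSPA9 in mixture 1 depended on single spots and arrays. Its log2 was 0.65 when replicate 1 of mixture 1 was left out, and 2.78 when replicate 2 was. Read from the first spot of each pair alone, it lay at 2.35 (limma adjusted p = 0.0206), and from the second spot alone at 1.02 (limma adjusted p = 0.311). With both spots kept as duplicates within an array, in place of their mean, the estimate of 1.72 had a limma adjusted p of 0.0685. HSP90AA1 (2.63 and 2.20) and DNAJB1 (1.65 and 1.47) passed from either spot alone.

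In mixture 2 none of the 3 genes passed, and 0% of the 1152 probes did in limma with Benjamini-Hochberg adjustment, while 226 probes had an unadjusted p under 0.05. DNAJB1 came nearest, at 0.71 ± 0.15 (SD, n = 2), with a 95% interval of 0.06 to 1.36, and it alone of the 3 had an unadjusted p under 0.05 (0.0348, limma adjusted p = 0.249). HSP90AA1 lay at 0.29 ± 0.79 (SD, n = 2), with an interval of -0.50 to 1.08. HSPA9 lay at -0.50 ± 0.26 (SD, n = 2), with an interval of -1.55 to 0.55.

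The order of the genes in mixture 2 was DNAJB1, HSP90AA1, HSPA9, and the arrays of HSP90AA1 spanned both sides of those of DNAJB1. Centring decides the sign of HSP90AA1 here: without it the value was -0.20, since the medians subtracted were -0.44 and -0.53 in mixture 2, against -0.12 and -0.22 in mixture 1. DNAJB1 stayed positive (0.23) and HSPA9 negative (-0.98) without centring. With the arrays scaled to one spread, DNAJB1 passed in mixture 2 (1.05, limma adjusted p = 0.0368).

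**Figure D3:**
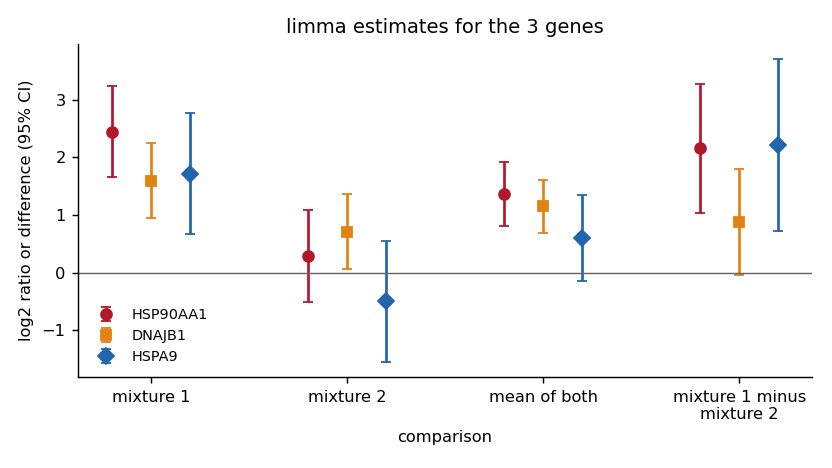
limma estimates (points) and 95% confidence intervals (bars) on the log2 scale for HSP90AA1, DNAJB1 and HSPA9 in mixture 1, mixture 2, their mean and their difference. In mixture 1 the 3 intervals lie above 0, and in the difference those of HSP90AA1 and HSPA9 do while that of DNAJB1 reaches -0.04.

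Averaged over both mixtures, HSP90AA1 and DNAJB1 passed and HSPA9, the only mitochondrial chaperone measured, did not. The difference between the genes was not tested, and the intervals of DNAJB1 (0.69 to 1.61) and HSPA9 overlapped. HSP90AA1 had a log2 of 1.37 (SE 0.246, 4 arrays), or 2.58-fold, and DNAJB1 one of 1.15 (SE 0.202), or 2.22-fold. Both had a limma adjusted p of 0.00906. The adjustment gave this smallest value of the comparison to other probes as well, NME4 among them, so it does not single the 2 genes out. HSPA9 had 0.61 (SE 0.327), with an interval of -0.14 to 1.35 and a limma adjusted p of 0.167.

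In the mean of both mixtures 38.7% of all probes passed, 21.7% with positive and 17.0% with negative values. DNAJB1 was positive on 4 of 4 arrays, as were 25.8% of probes, HSP90AA1 on 3 of 4 and HSPA9 on 2 of 4. The comparisons with each mixture share RT210B, so the values stand side by side without a measure of their likeness. After the trend of the ratio on the agreement of duplicate spots was removed, no probe passed in this mean in limma (348 had an unadjusted p under 0.05), where 446 had, and HSP90AA1 (1.68) and DNAJB1 (0.66) had limma adjusted p-values of 0.0525 and 0.0668. HSPA9 lay at 1.14 when replicate 2 of mixture 1 was left out, and it passed from first spots alone (0.91, limma adjusted p = 0.0374).

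Between the mixtures, the estimated differences were larger for HSPA9 and HSP90AA1 than for DNAJB1, and none passed. For HSPA9 it was 2.21 (SE 0.655), or 4.64-fold, with an interval of 0.72 to 3.70 and a limma adjusted p of 0.115. For HSP90AA1 it was 2.16 (SE 0.493), or 4.47-fold, with an interval of 1.04 to 3.28 and a limma adjusted p of 0.0762. For DNAJB1 it was 0.88 (SE 0.404), or 1.84-fold, with an interval of -0.04 to 1.80 and a limma adjusted p of 0.220.

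In this difference 0% of the 1152 probes passed in limma, although 275 had an unadjusted p under 0.05. All 3 genes had both arrays of mixture 1 above both arrays of mixture 2, as did 36.2% of probes. The pattern of HSPA9, positive on both arrays of mixture 1 and negative on both of mixture 2, was shared by 6.60% of probes. The difference for HSP90AA1 passed without centring (2.48, limma adjusted p = 0.0257). It was 2.39 when replicate 1 of mixture 1 was left out and 1.93 when replicate 2 was. Without replicate 1 of mixture 2 it was 1.60, and without replicate 2 of mixture 2 it was 2.72. The difference for HSPA9 ranged from 1.15 without replicate 1 of mixture 1 to 3.28 without replicate 2 of mixture 1. In each of these fits a lone array was assumed to vary like those of the other mixture. Without an array of mixture 1, all 3 genes had the same SE (0.555), so their own spread did not count. Only sizes are therefore given for these fits. With arrays scaled to one spread the difference was 0.18 for DNAJB1 and 1.24 for HSP90AA1, but 2.12 for HSPA9.

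The cytosolic and mitochondrial chaperones were then compared within each array, as the log2 ratio of HSP90AA1 or DNAJB1 minus that of HSPA9, a quantity that centring does not touch. These are values without a test, and they say only that the genes differ unequally between the channels. HSP90AA1 minus HSPA9 was -0.56 and 2.03 in mixture 1 and 0.05 and 1.53 in mixture 2. The means of the mixtures, 0.73 ± 1.83 and 0.79 ± 1.05 (SD, n = 2 each), lay far within the spread of their arrays, and replicate 1 was the lower array in both. The near equality of these means belongs to this setting: in mixtures 1 and 2 they were 0.60 and 1.48 with arrays scaled to one spread, 0.83 and 0.43 with the duplicate trend removed, 0.28 and 0.72 from first spots and 1.18 and 0.85 from second spots.

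DNAJB1 minus HSPA9 was -1.25 and 1.00 in mixture 1 and 1.13 and 1.29 in mixture 2. In mixture 2 the cytosolic co-chaperone was thus above the mitochondrial HSP70 by 1.21 ± 0.11 (SD, n = 2), and by 0.75 to 1.52 in each array from first or second spots alone. In mixture 1 the mean was -0.12 ± 1.59 (SD, n = 2), and the sign differed between arrays. Both arrays of mixture 2 were above both of mixture 1, but by 0.13 at the nearest point.

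The disputed spot of HSPA9 set the sign on replicate 2 of mixture 1. From first spots alone, DNAJB1 minus HSPA9 was -0.07 on that array and -1.33 on replicate 1. From second spots alone it was 2.07 and -1.17. HSP90AA1 minus HSPA9 remained positive on replicate 2 of mixture 1 with either spot (1.33 and 2.72) and negative on replicate 1 (-0.76 and -0.36). With the duplicate trend removed, DNAJB1 minus HSPA9 had a mean of 0.31 in mixture 2, with arrays at 0.04 and 0.59. In mixture 1 the mean was then -1.08, and both arrays were negative (-2.09 and -0.07). From first spots alone both arrays of mixture 1 were negative as well, with a mean of -0.70, and from second spots the mean was 0.45.

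**Figure D4:**
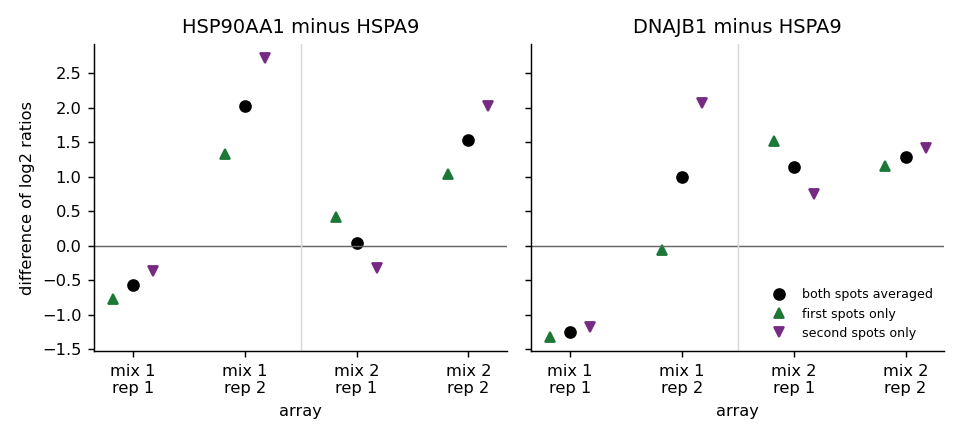
Difference of log2 ratios (vertical axis) of HSP90AA1 minus HSPA9 and of DNAJB1 minus HSPA9 on each array (horizontal axis), from both spots averaged (circles) and from first or second spots alone (triangles). DNAJB1 minus HSPA9 is positive on both arrays of mixture 2, while mixture 1 has -1.25 on one array and 1.00 on the other.

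Few other genes of the chaperone network could be read. Of 367 genes in 9 lists of chaperones, co-chaperones, stress genes, mitochondrial proteins and HSP90 clients, 18 could be named on a probe, the 3 chaperone genes included. No further cytosolic or mitochondrial chaperone was among them, and 4 lists (co-chaperones, mitochondrial import, iron-sulfur cluster assembly, chaperones of the endoplasmic reticulum) had no named gene. Some of the other genes may have probes without a name here. Of the stress list 1 gene was measured, the immediate early gene IER2, which did not pass in any comparison: it lay at -0.75 and 1.04 in mixture 1 and at -0.51 and -0.14 in mixture 2.

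HSP90 clients, proteins that need HSP90 to mature or stay stable, were the list with the most measured genes, 10 of 88 listed, on 11 probes. In mixture 1, 4 probes passed with positive values and 1 with a negative value, against 24.4% positive and 18.8% negative over all probes, so the client probes passed about as often as others. The median log2 over the 11 probes was 0.27, against -0.03 over all probes. On the positive side were RPS6KA1, a ribosomal S6 kinase of the ERK pathway (1.82, SE 0.374), LIMK1, the kinase that inactivates cofilin (1.66, SE 0.287), the oestrogen receptor ESR2 (1.44, SE 0.294) and WEE1, the kinase that holds back mitosis (1.08, SE 0.310). On the negative side was CDK7, the cyclin-dependent kinase of TFIIH (-1.19, SE 0.316). These 5 had limma adjusted p-values of 0.00780 to 0.0235.

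Without replicate 2 of mixture 1, WEE1 lay at 0.99, CDK7 at -0.94 and RPS6KA1 at 1.21. WEE1 and CDK7 did not pass in mixture 1 with the arrays scaled to one spread. With the duplicate trend removed LIMK1 was the only one of the 5 to pass in mixture 1. TERT, CDK6, KIT and PDPK1 did not pass, with log2 values of 0.27, 0.23, -0.71 and -0.23. The oestrogen receptor ESR1, on 2 probes, had 0.63 on one and -0.61 on the other in mixture 1, and its probes were opposite in mixture 2 as well (-0.80 and 0.26).

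In mixture 2 no client probe passed, and the median was 0.24, against -0.003 over all probes. In the mean of both mixtures the same counts were found, 4 positive and 1 negative of 11, beside 21.7% and 17.0% of all probes, with a median of 0.02 against -0.10 over all probes. ESR2 (1.05), RPS6KA1 (1.03), WEE1 (0.92) and LIMK1 (0.81) were positive and CDK7 (-0.77) negative. Without replicate 1 of mixture 2, WEE1 lay at 0.74, LIMK1 at 0.75 and CDK7 at -0.61. RPS6KA1 lay at 0.84 without replicate 2 of mixture 2. Without centring LIMK1 (0.49, limma adjusted p = 0.0791) and WEE1 (0.59, limma adjusted p = 0.0525) did not pass in this mean, nor did CDK7 with both spots kept (limma adjusted p = 0.0517). With the duplicate trend removed none of the 5 passed in this mean, at 1.21 for LIMK1, 0.50 for RPS6KA1, 0.43 for WEE1, 0.37 for ESR2 and -0.41 for CDK7. From close duplicates alone WEE1 (0.46) and RPS6KA1 (0.57) did not pass, nor did CDK7 from first spots (-0.72) or LIMK1 (0.40) and RPS6KA1 (1.01) from second spots. The list was chosen with earlier results of these data known and clients are known from other cells, so these counts describe the genes and nothing more.

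The 4 measured genes from the list of other mitochondrial proteins lay on the opposite side to HSPA9 in mixture 1. Their log2 values were -1.91 for CYP11B1, the steroid 11-beta-hydroxylase of the inner membrane, -1.53 for NME4, a nucleoside diphosphate kinase, -1.24 for BID, which carries the death signal to mitochondria, and -0.80 for BAD, a BH3-only protein that binds BCL2 relatives. The first 3 of these passed, with limma adjusted p-values of 0.0100 to 0.0213, and BAD did not (0.105), where 18.8% of all probes passed on the negative side. The median was -1.39, against -0.03 over all probes. The list does not hold every mitochondrial gene with a named probe. GCDH (-1.63 and -0.57 in mixture 1) and NDUFAF8 (-0.59 and -0.93), which are outside it, were negative on both arrays too. DBT (-0.46 and 0.11) and TK2 (-0.33 and 0.36), also outside it, fell on both sides of 0.

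BID lay at -0.85 without replicate 2 of mixture 1. None of these genes passed in mixture 1 with the duplicate trend removed. In mixture 2 NME4 lay at -1.45, CYP11B1 at -0.84, BAD at 0.35 and BID at 0.26, and none passed. NME4 (-1.49) and CYP11B1 (-1.38) passed in the mean of both mixtures. BID and BAD act on mitochondria from the cytosol, and none of the 4 is a partner in protein folding.

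**Figure D5:**
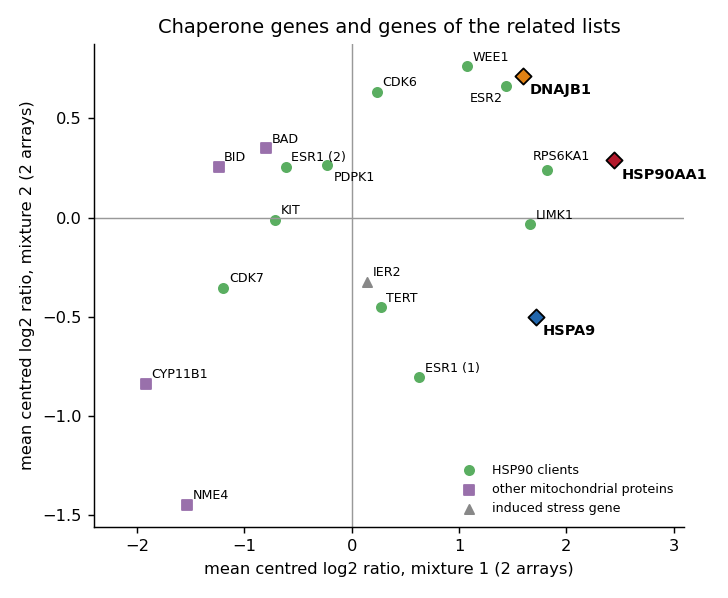
Mean centred log2 ratio in mixture 1 (horizontal axis) and mixture 2 (vertical axis), 2 arrays each, of the 3 chaperone genes (diamonds) and of measured genes from the lists of HSP90 clients (circles), other mitochondrial proteins (squares) and stress genes (triangle). ESR1 (1) and ESR1 (2) are its probes. The 3 chaperones lie at 1.59 to 2.45 on the horizontal axis, and the 4 listed mitochondrial proteins at -1.91 to -0.80. Both axes carry the shared control RT210B.

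Finally, the named genes with the most similar values were found by Euclidean distance over the 4 centred log2 ratios, a description over 4 arrays with no test. Nearest to HSP90AA1 was ELOC, the elongin C subunit of ubiquitin ligases, at a distance of 0.33, with values of 2.30 and 2.47 in mixture 1 and -0.16 and 0.62 in mixture 2. PRDM2, a histone methyltransferase (0.72), the client RPS6KA1 (1.07), MAT2A, which makes S-adenosylmethionine (1.09), and MST1L (1.47) followed, against a median distance of 3.79 for all named probes. All 5 shared the higher value on replicate 2 than on replicate 1 in each mixture, and ELOC, PRDM2, RPS6KA1 and MAT2A the change of sign within mixture 2.

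DNAJB1 had much closer neighbours. DNASE1L1 lay at a distance of 0.10, the zinc finger gene ZNF347 at 0.15, the collagen gene COL11A2 at 0.23, the receptor coactivator SRA1 at 0.28 and the client ESR2 at 0.29, against a median of 2.92. Each had close duplicate spots, 0.06 to 0.17 apart in the mean over arrays, like the 0.16 of DNAJB1 and below the 0.37 of the median probe. The part of spot agreement in this likeness was not tested.

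HSPA9 had no close neighbour. The nearest was HYAL3 of the hyaluronidase family at 1.19, followed by the heparan sulfate polymerase EXT2 at 1.42, the replication factor subunit RFC3 at 1.51, LIMK1 at 1.53 and the cathepsin CTSF at 1.55, against a median of 3.08. All 5 had duplicate spots 0.57 to 1.01 apart, wider than the median probe, as did HSPA9. The chaperones themselves were 1.66 (DNAJB1 and HSP90AA1), 2.35 (DNAJB1 and HSPA9) and 2.60 (HSP90AA1 and HSPA9) apart, so none was among the nearest neighbours of another.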

How the data were processed

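Two-channel array ratios of 4 arrays were analysed. The deposited values are log2 ratios, 1 for each of 2304 spots. Per the labels, a normalization factor of 3.8 applies to replicate 2 of mixture 1 and one of 1.169 to replicate 1 of mixture 2, and no source used here says what they multiply or gives dyes, scanner, background correction or spot filter. Brightness and signal over background are therefore unknown.

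Adjacent spots were averaged to 1152 probes. Spots of a pair correlated at r = 0.725 to 0.819 over probes, and unpaired neighbours at 0.003 to 0.074. Of the probes 350 had 1 gene symbol in GEO's platform annotation, 8 had several and 794 are unnamed here. Each array was centred on its median. limma 3.58.1 in R 4.3.3 (lmFit and eBayes) fitted 1 mean per mixture over all 4 arrays, with 2 residual and 6.69 prior degrees of freedom, and p-values were adjusted over all probes. Precision is limited by having 4 arrays, and the SE of the median probe was 0.313 for a mixture and 0.442 for the difference. The script was checked on simulated data.

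Named are the 3 chaperone genes, every list gene with a named probe, and the 5 nearest named probes by distance for each chaperone. The mitochondrial genes GCDH, NDUFAF8, DBT and TK2 are named besides, to show that the list is not complete. Members and lists were chosen with earlier results of these data known. Alternatives were no centring, scaled arrays, a replicate block, leaving out each array, spots kept as duplicates, own arrays only, removal of the duplicate trend, and close duplicates only. First spots, second spots and centring on the nearest 40 probes were chosen after seeing the data. Sequences are not used here.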

Additional observations from a re-analysis of the deposited data

Results flagged for a closer look

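Among the chaperones, the listed and marker genes and the genes named as nearest in pattern, 5 had both arrays of mixture 1 on one side of the middle probe and both arrays of mixture 2 on the other. HSPA9 differed by 2.21 (log2, mixture 1 minus mixture 2), ESR1 by 1.43 on 1 of its probes, TERT by 0.72, BAD by -1.15 and HYAL3, the gene nearest to HSPA9 in pattern, by 2.83. The difference itself was tested in limma and did not pass for any of them, with adjusted p-values of 0.115, 0.117, 0.285, 0.212 and 0.0732. HYAL3 was compared with HSPA9 because its pattern was alike, so its values are no separate support. Of all 1152 probes, 6.60% were positive on both arrays of mixture 1 and negative on both of mixture 2. The other probe of ESR1 differed by -0.87. For HSPA9, the array nearest to the opposite side was replicate 2 of mixture 1, at 0.65, whose spots lay at 1.87 and -0.57.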

How the results depend on the processing

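Over the tests of the 3 chaperone genes, 3 of 154 values under an alternative turned in sign. These values are not all separate. For a single mixture, leaving out an array of the other mixture and own arrays only are the same fit, with an unchanged log2. Fits with a lone array are read for size only. HSP90AA1 (1.89 to 2.91) and DNAJB1 (1.00 to 1.65) passed in mixture 1 under every alternative that measured them and kept both its arrays. HSPA9 in mixture 1 did not pass with arrays scaled to one spread (1.29), with both spots kept (1.72) or from second spots (1.02), and ran from 0.65 to 2.78 with an array left out. In mixture 2 HSP90AA1 turned to -0.20 without centring and ran from -0.27 to 0.84 with an array left out. HSPA9 turned to 0.0103 there with the duplicate trend removed. DNAJB1 passed in mixture 2 with scaled arrays (1.05), but lay at 0.33 with the duplicate trend removed and at 0.36 from close duplicates only. In the mean of both, HSP90AA1 (1.68) and DNAJB1 (0.66) failed with the duplicate trend removed, while HSPA9 passed from first spots (0.91) and ran from 0.0752 to 1.14 with an array left out. The difference between the mixtures for HSP90AA1 passed without centring (2.48) and ran from 1.60 to 2.72 with an array left out, and that for HSPA9 from 1.15 to 3.28. DNAJB1 minus HSPA9 in mixture 2 had a mean of 1.88 with scaled arrays, 0.31 with the duplicate trend removed, and 1.34 and 1.09 from first and second spots. The cause of these changes was not tested.

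The titles give both mixtures replicates 1 and 2, but nothing says that a number marks a shared day or culture, and same-numbered arrays did not deviate together (r = -0.098 over probes). With the replicate block, the differences for HSP90AA1 (2.16) and HSPA9 (2.21) passed, and 36 probes did where 0 had. Leaving aside fits with a lone array, counts of passing probes moved by over 1.5 times as follows. In mixture 1, 497 became 231 with scaled arrays, 185 with the trend removed and 272 of 576 with close duplicates only. In mixture 2, 0 became 206 without centring, 262 with scaled arrays and 113 on its own arrays. In the mean of both, 446 became 0 with the trend removed and 257 of 576 with close duplicates only. In the difference, 0 became 47 without centring and 2 with both spots kept. Only DNAJB1 was among the close duplicates. The mean and the difference could not be fitted on a mixture's own arrays.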
